A study of Homo sapiens with 24 samples.

Results

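Ago2 peaks that carry a seed match to miR-324-3p were followed after sodium arsenite treatment in 293S cells, an embryonic kidney line of human origin. A peak is a stretch of RNA that was crosslinked to Ago2, the Argonaute protein that carries miRNAs, and recovered with an antibody to it (CLIP). The 277 peaks were chosen by the authors' seed annotation: the column of 7-letter seed matches to 50 miRNA families had to name miR-324-3p. They make up 1.15% of the 24041 peaks in the table and 3.65% of the 7581 peaks with any listed seed, and they lie in 223 of 6088 genes. The groups were mRNA CLIP from cells given 1 mM arsenite for 30 min and from untreated cells, and the same treatments for RNA-seq and for the LO band CLIP libraries that gave Ago2-bound miRNAs, with 4 replicates in each of the 6 groups; no label says whether replicates were separate cultures. No group carried a transgene or a mutation by the labels. Every group came from the same line, which was not checked against markers because the tables list Ago2-bound RNA only.

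MicroRNAs are short RNAs that lead Ago2 to messenger RNAs, mainly through pairing of bases 2 to 8 of the miRNA, the seed. Ago2 bound in this way recruits TNRC6 proteins and deadenylases, and the target is translated less and decays faster. Mature miR-324-5p and miR-324-3p are cut from the arms of the same hairpin, and uridylation of the precursor by TUT4 and TUT7 is known to shift which arm is kept. The 5p arm is known for repressing the Hedgehog genes SMO and GLI1 in cerebellar precursor cells. Arsenite reacts with protein thiols, blocks translation initiation and induces stress granules.

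The seed behind these peaks is shown first, because its letters define the set. The table lists miR-324-3p together with miR-1913 as a family, and RefSeq (GRCh38.p14) gives the mature sequences below, 5′ to 3′, with the 7 letters of each family's seed in capitals. miR-324-3p lies on chromosome 17 at 7223308 to 7223330 on the minus strand and miR-1913 on chromosome 6 at 166509364 to 166509385 on the minus strand. Below them stand miR-18a-3p, miR-331-3p, miR-34a-5p and miR-708-5p, whose families have log ratios near those of miR-324-3p, and then miR-17-5p and miR-92a-3p, whose families have the highest.
miR-324-3p: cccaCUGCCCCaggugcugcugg
miR-1913: uCUGCCCCcuccgcugcugcca
miR-18a-3p: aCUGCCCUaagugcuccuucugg
miR-331-3p: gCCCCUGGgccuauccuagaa
miR-34a-5p: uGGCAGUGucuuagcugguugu
miR-708-5p: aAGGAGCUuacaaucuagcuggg
miR-17-5p: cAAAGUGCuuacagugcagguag
miR-92a-3p: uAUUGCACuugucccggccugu

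The letters CUGCCCC are bases 2 to 8 of miR-1913 but bases 5 to 11 of the RefSeq miR-324-3p, whose own bases 2 to 8 are CCACUGC. The capitals given for miR-324-3p were taken as the 7 letters of the family because bases 2 to 8 of miR-1913 occur in it, and they do not start at the second base of this RefSeq entry. In 42 of the 50 families all miRNAs found in RefSeq shared the same bases 2 to 8, in 5 families they did not, and for 3 families no entry was found. Which 5′ end the authors used is not given in the sources used here. A site for this seed in an mRNA reads GGGGCAG, so 6 of its 7 letters are G or C. The seed of miR-18a-3p differs from it by C7U, counted from 1 at the 5′ end of the 7 letters, and its site reads AGGGCAG. The hairpin is shown with its 5p and 3p arms in capitals, since both arms are described with the Ago2-bound miRNAs.
MIR324 hairpin: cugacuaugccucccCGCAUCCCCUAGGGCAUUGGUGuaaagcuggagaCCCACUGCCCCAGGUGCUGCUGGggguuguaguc

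Peaks with the miR-324-3p seed had lower log ratios of Ago2 signal with arsenite than the peaks of the table as a whole. Each peak has a log ratio of normalized CLIP signal, arsenite over untreated, and a log average over both treatments. Both are the authors' values over all replicates, and their log base and normalizer are not stated. The 277 peaks had a median log ratio of 0.22, with quartiles of -0.50 and 0.96 and a range of -2.53 to 3.34. Over all 24041 peaks the median was 0.65, with quartiles of -0.16 and 1.49. Of the seed peaks 160, or 57.8%, lay above 0 (Wilson 95% interval 51.9 to 63.4%, counting error over peaks only), against 70.3% of all peaks. A log ratio above 1 was listed for 68 seed peaks, 24.5%, against 39.1% of all peaks. A log ratio below -1 was listed for 29 seed peaks, 10.5%, against 7.43% of all peaks. Below the median of all peaks lay 179 of the 277. Peaks that list no other family had a median of 0.13. The family was singled out with its low median known, and replicates are merged in each value, so these figures describe the peaks and carry no test. Whether the log ratios are relative to RNA abundance is not stated, and whether a value reflects more Ago2 per RNA or more RNA was not tested here.

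The lower values were found in each region of the transcript. In the untranslated regions after the stop codon (3′UTRs), 148 seed peaks had a median log ratio of 0.29, with 61.5% above 0. For all 12251 3′UTR peaks the median was 0.88, with 76.2% above 0. With 1 peak per gene, that of the highest log average, the 3′UTR seed peaks had a median of 0.49. In coding sequence (CDS) the median was 0.37 over 83 seed peaks, 60.2% of them above 0, and 0.58 over all 8303 CDS peaks, 68.4% of them above 0. The 33 seed peaks in 5′UTRs had a median of -0.22 with 42.4% above 0, against 0.25 and 60.8% over 2169 such peaks. In noncoding RNA exons the median of 13 seed peaks was -0.32 with 38.5% above 0, against -0.18 and 42.6% over 1318 such peaks. The regions were held in similar shares: 53.4% of seed peaks and 51.0% of all peaks lay in 3′UTRs, 30.0% and 34.5% in CDS, 11.9% and 9.02% in 5′UTRs, and 4.69% and 5.48% in noncoding exons.

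**Figure D1:**
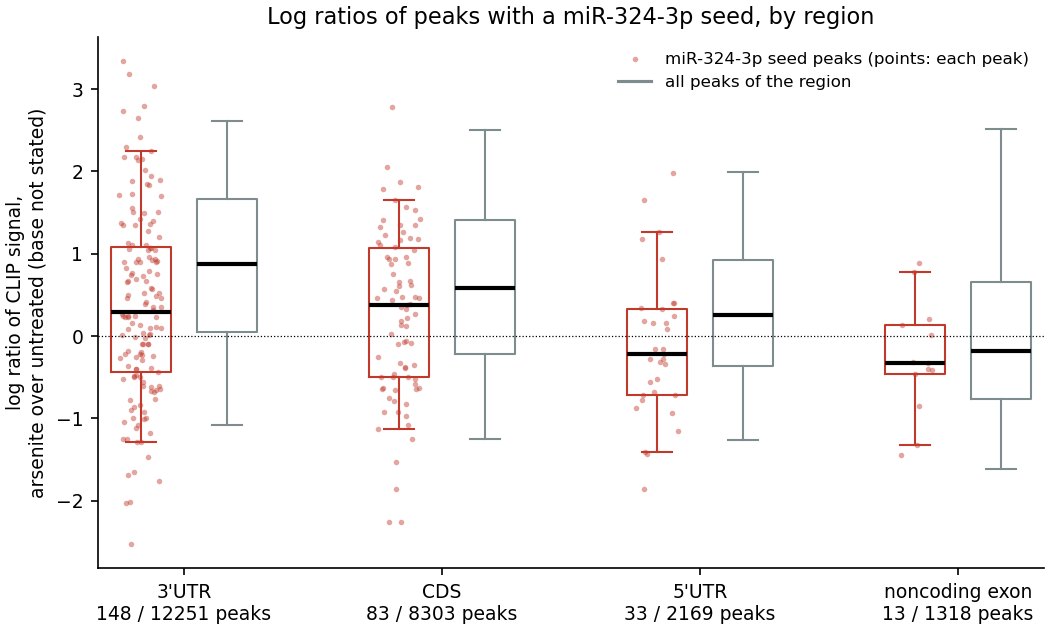
Log ratio of CLIP signal, arsenite over untreated (log base not stated), for peaks with a miR-324-3p seed (red, points are peaks) and for all peaks of the region (grey), with the numbers of peaks under each pair. Boxes show quartiles and median and whiskers the 5th and 95th percentiles; the red median is below the grey one in all 4 regions, by the most in 3′UTRs, at 0.29 against 0.88.

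Seed peaks were longer than the other peaks and had more signal. Their median length was 64 nucleotides, with a range of 21 to 151, against 50 nucleotides for all peaks. Their median log average was -4.60, with a range of -8.72 to 0.07, against -5.18 for all peaks. In 4 bins of length from short to long the seed peaks had medians of 0.84 over 32 peaks, 0.02 over 39, 0.36 over 71 and 0.02 over 135. All peaks had medians of 1.04, 0.80, 0.48 and 0.34 in the same bins, so longer peaks had lower log ratios across the whole table. The bins ended at 38, 50, 65 and 219 nucleotides, and the last of them held 48.7% of the seed peaks. Peaks with any other listed seed had medians of 1.54, 1.37, 0.91 and 0.54 there. The seed peaks were thus below all peaks of similar length in each of the 4 bins, and the part of length in their low median was not tested. Across 4 bins of the log average with equal shares of all peaks their medians were 0.13, 0.24, 0.40 and 0.01 from low to high, against 0.59, 0.83, 0.66 and 0.53 for all peaks.

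The highest log ratios belonged to messengers of varied function. The 8 genes named here are those with the highest values among the 223 seed peaks whose log average was at or above the first quartile of all peaks, -6.25. MYBL2, a cell cycle transcription factor of the MYB family, had 3.34 at a 3′UTR peak that also matches the miR-30 family (hg19, chromosome 20, 42344750 to 42344781, plus strand). A second MYBL2 seed peak overlaps it and had 3.04 (42344772 to 42344792), while the lowest of the gene's 5 peaks had -2.06. GPX4, the glutathione peroxidase that reduces lipid peroxides, had 3.18 in its 3′UTR (chromosome 19, 1106623 to 1106767, plus strand), and its 4 peaks ranged from 0.88 to 3.26. All GPX4 peaks were thus above 0, and the MYBL2 peaks lay on both sides of it. BSG, the membrane glycoprotein basigin, had 2.79 in its 3′UTR, the highest of its 8 peaks. DEK, a chromatin-binding protein, had 2.78 at the highest CDS seed peak (chromosome 6, 18258273 to 18258293, minus strand), and the median of its 10 peaks was 1.98.

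The other 4 genes with high values carried few peaks. MSX1, a homeobox transcription factor, had 2.73 in its 3′UTR and 0.88 at its other peak. MZT2B, a component of gamma-tubulin complexes, had 2.64 in its 3′UTR, and its other peak had -0.07. PFDN5, a subunit of the prefoldin chaperone, had 2.30 at its sole peak, which also matches miR-186-3p. MARK2, a kinase that acts on microtubule-associated proteins, had 2.24 at a 3′UTR seed peak and -1.29 at its other peak. All peaks of GPX4, BSG, MSX1 and PFDN5 thus lay above 0, and MYBL2, DEK, MZT2B and MARK2 each had a peak below 0.

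The 8 genes with the lowest log ratios, chosen in the same way, were of varied function too. ZNF740, a zinc finger protein, had the lowest log ratio, -2.53, in its 3′UTR (chromosome 12, 53583895 to 53583963, plus strand), and all 6 of its peaks lay below 0, the highest at -0.27. ZBTB22, another zinc finger protein, had -2.27 at its sole peak, in the CDS (chromosome 6, 33283295 to 33283347, minus strand). ZNF512B, also a zinc finger protein, had -2.01 in its 3′UTR, and SRF, the serum response factor, -1.86 in its CDS, the lowest of 10 SRF peaks. ZDHHC8, a palmitoyltransferase, had -2.03 in its 3′UTR, and -1.33 at its other peak. TBKBP1, an adaptor that binds the kinase TBK1, had -1.86 at the lowest 5′UTR seed peak, and its 23 peaks reached 1.24. AMDHD2, a deacetylase of amino sugar metabolism, had -1.76 in its 3′UTR, and all 11 of its peaks lay below 0. BCL2L2, a survival protein of the BCL2 family, had -1.65 at a 3′UTR peak that also matches the miR-146 family. That peak was the lowest of 25, the highest of which had 1.21. All peaks of ZNF740, ZBTB22, ZDHHC8 and AMDHD2 thus lay below 0, though ZBTB22 had only 1 peak and ZDHHC8 only 2. ZNF512B, SRF, TBKBP1 and BCL2L2 each had a peak above 0.

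The seed peaks with the most signal did not share a direction. HES6, a basic helix-loop-helix factor, had the highest log average, 0.07, at a 5′UTR peak with a log ratio of 1.66. P2RY11, a purine receptor, followed with a log average of -0.21 and a log ratio of -0.34 in its 5′UTR. A second AMDHD2 seed peak had a log average of -0.24 and a log ratio of -0.47. ISYNA1, the inositol phosphate synthase, had -0.38 and 0.34, and VPS37D, an ESCRT-I subunit, -0.69 and 0.58, each giving first the log average and then the log ratio. Of these peaks only that of P2RY11 listed no other family. Among the extremes of the other regions, CD276, an immune checkpoint ligand, had the highest 5′UTR value, 1.99. That peak also matches the miR-103 family. MALAT1, a nuclear noncoding RNA, had the lowest noncoding value, -1.45, and the median of its 105 peaks was -0.81. The highest noncoding value, 0.89, was at an ISYNA1 transcript annotated as noncoding.

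Of the 223 genes with a seed peak, 187 had 1, 27 had 2 and 9 had 3 or more. The miR-17 family had 716 peaks in 640 genes, miR-34/miR-449 168 in 152, miR-28/miR-708 162 in 143 and miR-18a-3p 162 in 144. Peaks per gene were thus not fewer for miR-324-3p than for these families, whose overlapping peaks are not joined here. Joined where they overlap on a strand, the 277 peaks form 258 separate stretches, and 38 peaks overlap another seed peak, so they can share a site. Among the 36 genes with 2 or more, 14 had all seed peaks above 0, 13 had all below 0 and 9 had both, and the median range within a gene was 0.54. SRRM2, a splicing factor of nuclear speckles, had 6 seed peaks. Its CDS peaks had 1.17, 0.13, 0.75, -0.83 and 0.94 from 5′ to 3′, and its 3′UTR peak had -0.61. The SRRM2 peaks thus differed in sign along the coding sequence, and all 6 had log averages of -7.18 or lower, below the first quartile of -6.25. ADARB1, an adenosine deaminase that edits RNA, had 5 in its 3′UTR, with -0.10, -0.49, 0.83, 0.76 and 0.25 from 5′ to 3′. The ADARB1 peaks at -0.10 and -0.49 overlap, as do those at 0.83 and 0.76, so the 5 form 3 stretches. GPSM1, a modulator of G protein signalling, had 5 between -0.65 and 0.16, of which 1 lay above 0.

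ZNF512B and SON stood low at every seed peak. The 4 ZNF512B peaks, all in its 3′UTR on the minus strand, had -2.01, -1.69, -1.05 and -0.99, and the last 2 overlap. The median of the gene's 37 other peaks was -0.38. SON, a splicing cofactor, had 3 CDS seed peaks at -2.26, -0.92 and -0.49, of which the last 2 overlap. The median of its 18 other peaks was 0.45. The ZNF512B peak at -0.99 and the SON peaks at -0.92 and -0.49 also match another family. The SON values, and the ISYNA1 peak at 0.21, were named after they were seen. HNRNPD, which encodes the RNA-binding protein AUF1, had 1.41 and 0.96 in its CDS. In its 5′UTR it had 0.25 and -0.15 at overlapping peaks. DDX17, an RNA helicase, had 1.81 and 1.35 at overlapping CDS peaks and 0.89 in its 3′UTR, above the median of 0.21 over its 28 other peaks. All seed peaks of SON, DDX17 and EIF4G1 had log averages below the first quartile of all peaks, -6.25. So had those of HNRNPD except the one at 0.96. The 3 ISYNA1 seed peaks lay between 0.21 and 0.89, and those at 0.21 and 0.89 overlap. The 3 EIF4G1 seed peaks, described with the stress list, lay on both sides of 0.

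**Figure D2:**
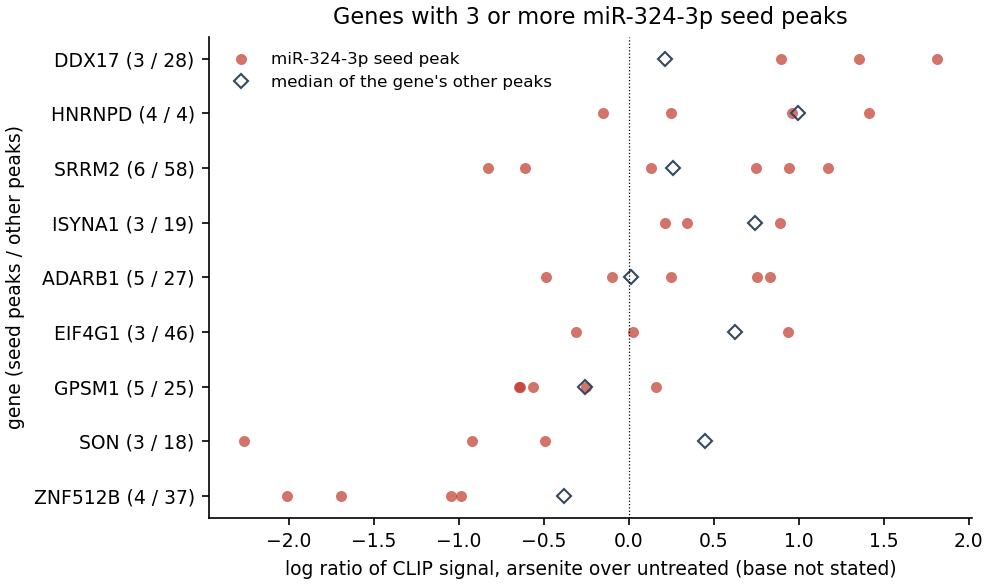
Log ratio of every miR-324-3p seed peak (red) in the 9 genes with 3 or more, with the median of the gene's other peaks (open diamonds) and the numbers of both in parentheses. All seed peaks of ZNF512B and SON lie below 0 and below the diamond, and those of DDX17 lie above it.

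Set against other peaks of the same gene and region, the seed peaks lay at about the level of their transcripts. Such other peaks existed for 234 of the 277 seed peaks, in 197 pairs of gene and region. The median difference, seed peaks minus others, was -0.07, with quartiles of -0.62 and 0.44, and the seed peaks were higher in 91 pairs and lower in 105. The medians over the pairs were 0.25 for the seed peaks and 0.30 for the others. By region the median difference was 0.01 over 104 pairs in 3′UTRs, -0.13 over 62 in CDS, -0.31 over 21 in 5′UTRs and -0.30 over 10 in noncoding exons. In 5′UTRs 5 seed values were higher and 16 lower than those of the same gene. Against peaks with no listed seed the median difference was -0.00 over 188 pairs. Where seed peaks that list another family too were left out, it was -0.17. The other peaks of a gene could overlap its seed peaks. With overlapping peaks reduced to 1, the median difference was -0.08 over 167 pairs. In genes with a seed peak, the other peaks were low as a set. These 2824 peaks had a median log ratio of 0.18 with 56.8% above 0, against 0.74 and 72.3% for the 20940 peaks of the remaining genes. Each peak counts once there, so genes with many peaks weigh more. The 2824 peaks were also longer, with a median of 57 nucleotides against 49. The sets were not matched by length or region, and the part of either was not tested. Over pairs, the others were also low for miR-18a-3p, miR-34/miR-449 and miR-28/miR-708, with medians of 0.25, 0.23 and 0.28. For miR-17 and miR-25/92 they were 1.07 and 1.06.

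**Figure D3:**
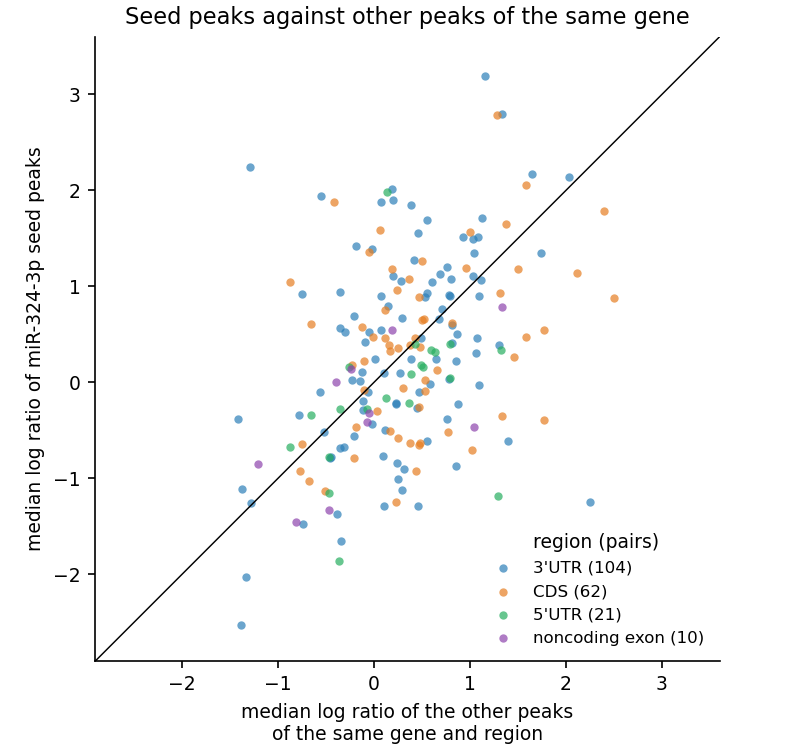
Median log ratio of miR-324-3p seed peaks (vertical) against that of the other peaks of the same gene and region (horizontal) for 197 pairs, coloured by region, with the line of equal values. The points spread on both sides of the line, 91 above and 105 below it, with a median difference of -0.07.

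The largest differences within a gene, among pairs with at least 3 other peaks, ran both ways. No limit on signal was set for these pairs. The seed peaks of DDB1, SRRM2, TRIO and TOMM20 had log averages below the first quartile of all peaks, -6.25. DDB1, the adaptor of CUL4 ubiquitin ligases, had -0.39 at its CDS seed peak and a median of 1.77 over 3 other CDS peaks. The 3′UTR seed peak of SRRM2 had -0.61, against 1.40 over 9 others. SV2A, a synaptic vesicle protein, had -1.28 in its 3′UTR at a peak that also matches miR-186-3p, against 0.46 over 7 others. TRIO, a guanine nucleotide exchange factor, had a median of -0.70 at 2 overlapping CDS seed peaks, against 1.02 over 4 others. In the other direction, HOXD11, a homeobox factor, had 1.05 in its CDS, against -0.88 over 4 others. RPA2, a subunit of the single-strand DNA-binding replication protein A, had 2.01 in its 3′UTR at a peak that also matches miR-331-3p, against 0.19 over 4 others. TOMM20, a receptor of mitochondrial protein import, had 1.88 in its 3′UTR, against 0.08 over 9 others. MARCKSL1, an actin regulator related to MARCKS, had 1.42 in its 3′UTR, against -0.18 over 8 others.

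Seed peaks that also matched another family had higher log ratios as a set, though not with every partner. The 202 peaks that listed no other family had a median of 0.13, and 111 of them lay above 0. The 63 peaks with 2 families had a median of 0.39, and the 12 peaks with 3 had 1.08. Their median lengths were 61.5, 77 and 65 nucleotides. The most frequent partner was miR-331-3p, whose seed is also rich in C, with 14 shared peaks, or 5.05% of the seed peaks and 7.07% of the miR-331-3p peaks. The median of those 14 was 0.90, with 10 above 0. The 9 peaks shared with miR-125 had a median of 0.02, the 8 shared with miR-186-3p 0.44, the 6 shared with miR-15/16 1.60 and the 6 shared with miR-18a-3p 0.15. All 3 peaks shared with miR-30 lay above 0, as did 93.4% of all miR-30 peaks. All 3 shared with miR-146 lay below 0, while 64.9% of all miR-146 peaks lay above it. For the other partners with 3 shared peaks, the medians were -0.06 with let-7, 0.04 with miR-34/miR-449 and 1.35 with miR-27. The miR-17 family shared 1 peak, or 0.361% of the seed peaks and 0.140% of the miR-17 peaks. Over all peaks 1.15% carried the miR-324-3p seed, the share to set beside this 0.140% and the 7.07% for miR-331-3p.

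The 7 gene lists for signalling, RNA silencing, chromatin, development and stress held 15 of the 277 seed peaks, 5.42%, a share near the 6.36% of all peaks that they held. In the Wnt list of 39 genes, 25 had peaks and 2 had a seed peak, both in Dishevelled proteins, which carry the signal from Frizzled receptors. DVL1 had -1.26 at a 3′UTR seed peak (chromosome 1, 1271378 to 1271463, minus strand), and DVL2 had 2.06 at a CDS seed peak (chromosome 17, 7129476 to 7129552, minus strand). The median over the 13 DVL1 peaks was -1.26, the value of the seed peak itself, and over the 16 DVL2 peaks 1.31. Against the other peaks of its gene and region, the seed peak differed by 0.02 for DVL1 and by 0.48 for DVL2. The DVL1 seed peak thus lay at the level of those peaks, and the DVL2 seed peak lay above it. All Wnt list peaks had a median of 0.55, with 90 of 129 above 0. In the TGF-beta list, SKI, a repressor of SMAD proteins, had 0.46 at its 3′UTR seed peak, and 62 of the list's 93 peaks lay above 0. None of the 9 Hedgehog genes with peaks held a seed peak, where 3.66% of all genes in the table did, and 26 of their 32 peaks lay above 0.

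Of the miRNA pathway list, TNRC6A, the Ago2 partner that recruits deadenylases, had 0.39 at a 3′UTR peak, while 159 of the list's 210 peaks lay above 0. Among chromatin regulators 5 of 54 genes with peaks had a seed peak, 3 above and 2 below 0. KDM6B, an H3K27 demethylase, had 0.90, and SETD1A, an H3K4 methyltransferase, had 0.65. MLL2, another H3K4 methyltransferase, had -0.22 and BRD2, a bromodomain protein, -0.84, and 319 of the list's 489 peaks lay above 0. Of the developmental factors, SOX11 had 0.12 in its CDS beside the 1.05 of HOXD11, and 176 of the list's 260 peaks lay above 0. The seed peaks of TNRC6A, KDM6B, SETD1A and SOX11 also match other families. In the stress and translation list, ATXN2L, a stress granule protein, had -0.63 in its CDS. EIF4G1, the scaffold of the cap-binding complex, had 0.94 and -0.31 in its 5′UTR and 0.02 in its CDS, and 245 of the list's 316 peaks lay above 0. In these 7 lists the seed peaks were too few to describe a list by them, and 70.3% of all peaks lay above 0.

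Several other families had medians as low as that of miR-324-3p. Ranked from the lowest median of the 50 families, miR-324-3p stood at place 5, behind miR-18a-3p, miR-34/miR-449, miR-210 and miR-28/miR-708. Their medians were 0.22 for miR-324-3p, 0.05 for the 162 peaks of miR-18a-3p, 0.18 for the 168 of miR-34/miR-449 and 0.21 for the 162 of miR-28/miR-708. The 25 peaks of miR-210 had a median of 0.20 and the 209 of miR-185-5p, next above miR-324-3p, 0.27. Median lengths were 64 nucleotides for miR-324-3p, 67.5 for miR-18a-3p, 63.5 for miR-34/miR-449, 63 for miR-28/miR-708, 61 for miR-185-5p and 58 for miR-210. The differences from other peaks of the same gene and region had medians of -0.07 for miR-324-3p, -0.07 for miR-18a-3p, -0.02 for miR-34/miR-449 and -0.16 for miR-28/miR-708. In the miR-17 and miR-25/92 families these differences were 0.49 over 451 pairs and 0.60 over 278 pairs, and their peaks had median lengths of 44 and 42 nucleotides. Differences between families were not tested, since each peak has 1 value over all replicates. In 5′UTRs, 42.4% of the miR-324-3p peaks lay above 0, against 42.9% of 7 miR-28/miR-708 peaks, 50.0% of 20 miR-18a-3p peaks and 61.5% of 13 miR-34/miR-449 peaks.

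The families with the most G and C letters in the seed, 5 or 6 of 7, had low medians. Over 46 families with a seed in RefSeq, the number of G and C letters went with the family median at a Pearson r of -0.61 and a Spearman coefficient of -0.64. Over all 50 families, median length went with the family median at a Pearson r of -0.80 and a Spearman coefficient of -0.80. These are descriptions, since families share peaks and libraries. Seed composition and length also went together in part. The middle of the family median lengths was 51, 52, 51.25 and 48 nucleotides at 0, 1, 2 and 3 G or C letters. At 4, 5 and 6 letters it was 55.5, 63.5 and 64.75, so the coefficients are not separate observations. The miR-324-3p seed and that of miR-331-3p, with 6 G or C letters each, had the most, and their family medians were 0.22 and 0.33. The 5 families with 5 such letters had medians between 0.05 and 0.58. Medians ran from 0.20 to 1.42 over the 17 families with 4 such letters and from 0.53 to 1.72 over the 12 with 3, with miR-25/92 at the top. Families with 0, 1, 2 and 3 such letters showed no steady order, with middle values of 1.26 for 1 family, 1.56 for 1, 1.06 for 8 and 1.41 for 12. The part of base composition in the log ratios was not tested, since peak sequences were not used here.

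**Figure D4:**
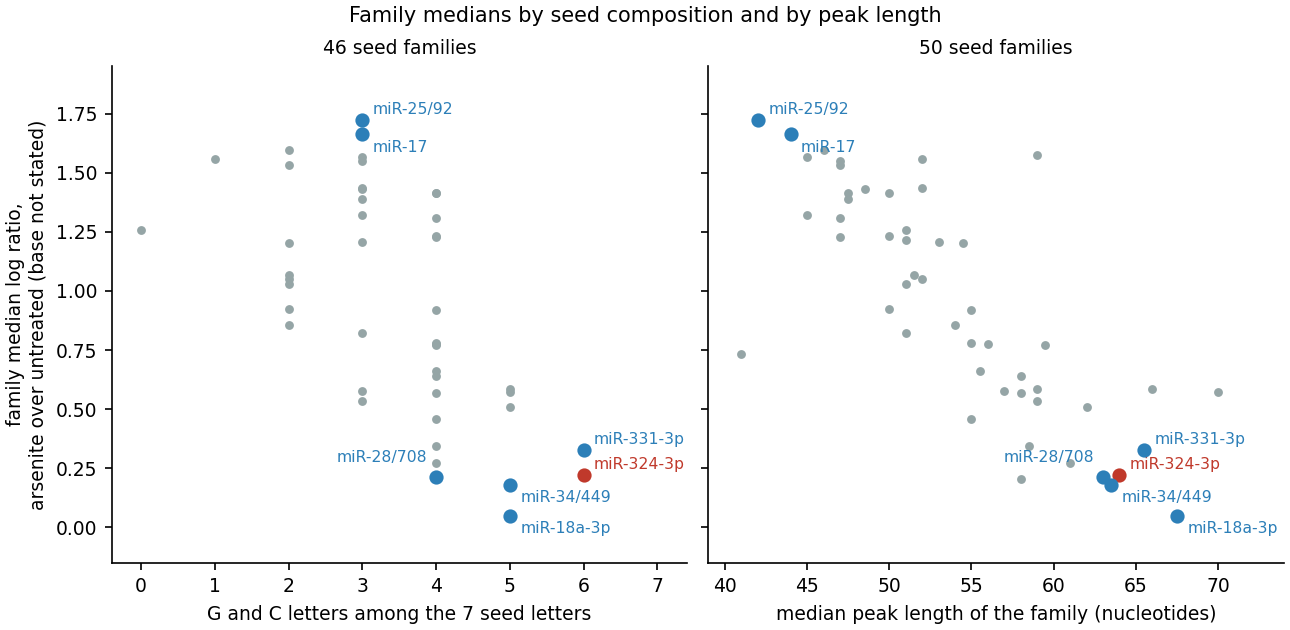
Median log ratio of each seed family's peaks, arsenite over untreated (log base not stated), against the number of G and C letters in the 7-letter seed (left, 46 families) and against the family's median peak length in nucleotides (right, 50 families). miR-324-3p (red) lies at 6 letters, 64 nucleotides and 0.22, near miR-18a-3p, miR-34/miR-449 and miR-331-3p, while miR-17 and miR-25/92 lie at the upper left of the right panel.

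Ago2 held less miR-324-3p in arsenite-treated cells by the authors' means, a difference that did not pass their adjusted test. The authors' deposited table gave mean normalized counts of 105288 with arsenite and 159639 untreated for miR-324-3p, a log2 ratio of -0.60 (DESeq p = 0.00771, adjusted p = 1). For the 5p arm the authors' deposited table gave means of 3626 with arsenite and 5412 untreated, a log2 ratio of -0.58 (DESeq p = 0.0131, adjusted p = 1). The arms were thus in nearly the same proportion under both treatments, with 29.0 times as much 3p as 5p with arsenite and 29.5 times untreated. Of 1213 entries in the authors' deposited table, 24, 1.98%, had an unadjusted DESeq p under 0.05 and 0 an adjusted p under 0.05, and miR-324-3p had the fourth smallest p. By mean it ranked 26 of the 1213 entries and held 0.740% of the summed means of mature miRNAs. Among 192 mature miRNAs with a mean of at least 1000, whose log2 ratios ran from -0.70 to 0.79 with a median of 0.04, it had the third lowest.

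The seed partners differed in amount. In the authors' deposited table miR-1913 had means of 75.3 with arsenite and 101.8 untreated, a log2 ratio of -0.43 (DESeq p = 0.439, adjusted p = 1), so nearly all Ago2-bound miRNA of this family was miR-324-3p. For miR-18a-3p, whose seed differs in its last letter, the authors' deposited table gave means of 18110 with arsenite and 26880 untreated, a log2 ratio of -0.57 (DESeq p = 0.0113, adjusted p = 1). The authors' deposited table gave a log2 ratio of -0.49 for miR-708-5p, -0.39 for miR-34a-5p, -0.67 for miR-449a and 0.10 for miR-331-3p. For miR-210 and miR-185-5p, whose families also had low medians, the authors' deposited table gave -0.03 and -0.30. None of these had an unadjusted DESeq p under 0.05. For miR-17-5p the log2 ratio in the authors' deposited table was -0.02 and for miR-92a-3p it was 0.17, also with no unadjusted DESeq p under 0.05. Whether the amount of miRNA on Ago2 has a part in the log ratios of the seed peaks was not tested.

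**Figure D5:**
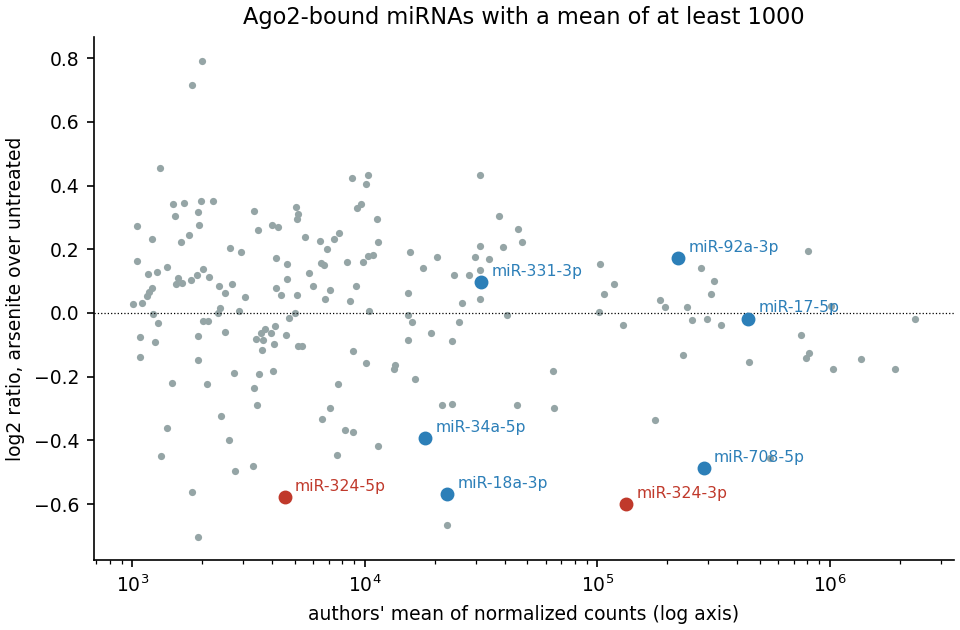
Log2 ratio of arsenite over untreated against the authors' mean of normalized counts (log axis) for 192 mature miRNAs with a mean of at least 1000 bound to Ago2. The arms of miR-324 (red) lie at -0.60 and -0.58, beside miR-18a-3p at -0.57, and the labelled miR-17-5p, miR-92a-3p and miR-331-3p lie near or above 0.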

How the data were processed

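Per the labels, 293S cells with and without arsenite gave Ago2 CLIP, LO band CLIP and RNA-seq libraries. Tools that the authors used, per the submitters' processing notes, include TopHat, Bowtie 0.12.8 and DESeq, with hg19 as the build and no roles given. Which peak caller and normalizer were used is not stated. The authors deposited, per the file headers, a log average and a log ratio per peak, treated here as a score because the log base is not stated. The miRNA table (miRBase 18 names) holds, per the file headers, the authors' signal values (counts divided by size factors, averaged per treatment), their ratio or fold, its log2 value, and DESeq p-values. Neither table has a column of a single sample, so sequencing depth is unknown, no replicate error could be given, and the fit planned for replicate columns could not be made. RNA-seq values were not analysed here.

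Members, medians, quartiles and shares were computed with Python 3.11.15 and pandas 2.3.3. Wilson intervals used scipy 1.17.1. Peak length is end minus start plus 1, and coordinates are as deposited. The rule for named genes took, 1 per gene, the 8 peaks at each end of the log ratios with a log average at or above the first quartile, the 5 highest log averages, 6 genes with 3 or more seed peaks, seed peaks in genes of 7 lists (1 such peak is counted but not reported here by name), the 4 largest differences each way within a gene, and the extremes of each region. The SON peaks and 1 ISYNA1 peak fall outside this rule, and miRNA entries were chosen to match the families compared. Members and lists were chosen with earlier results of these data known. miRNAs listed without an arm were matched to a RefSeq entry under that name or with an arm added. The calculation of the within-gene difference was tried on simulated data with known shifts and members drawn at random. Its tolerance was wider than the reported -0.07, so it says nothing of a difference that small.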

Additional observations from a re-analysis of the deposited data

How the results depend on the processing

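Under 5 alternatives planned and 2 added after seeing the data (leaving out the genes with 3 or more seed peaks, and comparing within genes with peaks that list no seed), every median and share stayed within the 95% binomial interval of its reported value. Keeping only peaks of 20 nucleotides or longer left these values as they were, since the shortest seed peak has 21, and so says nothing of their stability. The others mostly kept a part of the same seed peaks, so values inside those intervals were likely from the start and show little of stability. Values of all peaks under the same alternatives are not given here. Those intervals count peaks as independent and are too narrow where peaks share a gene or overlap. The median log ratio of the seed peaks ran from 0.13, for peaks listing no other family, to 0.27, for 1 peak per gene. The share above 0 ran from 55.0 to 59.6%. By region the medians ran from 0.24 to 0.49 in 3′UTRs, 0.34 to 0.45 in CDS, -0.28 to -0.22 in 5′UTRs and -0.42 to -0.32 in noncoding exons. The difference within genes ran from -0.17 to -0.00, and 1 peak per gene could give no value for it. No paired analysis was possible because the tables used give 1 value per peak or miRNA over all replicates, and no replicate could be left out for the same reason. The zero of the log ratio depends on the authors' scaling, which is not stated, so counts above 0 are to be read against those of all peaks. Depth limits could not be given.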
